A study of Mus musculus with 9 samples.

Results

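The Dlk1-Dio3 domain on mouse chromosome 12 carries a large group of microRNA genes, and its probe sets were followed here in the hippocampus of SAMP10/TaSlc (SAMP10) mice, an inbred strain with accelerated senescence, fed soybean extracts. The members were the probe sets with neighbouring numbers at this locus whose gene symbol field names a microRNA, Meg3 or Rian, and that had no exact 0 on any of 9 arrays. Of 45 such probe sets, 40 met the rule on zeros, out of 34760 probe sets on the array and 21959 that could be tested. The locus was chosen by the values of 1 member (Mir381), which scored lower with green than with yellow soybean, so every difference between those diets at this locus is given as a description, without a test.

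Each diet had 3 arrays. Green soybean mice ate the standard diet CE-2 with 3.0% green soybean extract, yellow soybean mice ate CE-2 with 3.0% yellow soybean extract, and control mice ate the control diet, as the source label says. The treatment text given with the control samples also mentions the soybean extract, so every difference from control rests on the source label and the sample titles. All mice were males of the same strain, fed from 1 to 12 months of age, in groups of 12 with several mice to a cage. The labels do not say whether an array held RNA of 1 mouse or of a pool, nor from which cage, so a p-value measures the spread between these arrays, which may be technical, and cage and diet cannot be told apart. The sample titles carry the name SMP30, and the strain label was followed. Values are the authors' normalized scores, on a scale where a larger score means a brighter probe set. If the score was made from log10 intensities, which the sources used here do not state, 0.1 unit corresponds to about 1.18-fold. Scores of different probe sets cannot be set against each other, because each responds to RNA in its own way.

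In this domain the maternally inherited chromosome is transcribed into the long non-coding RNAs Meg3, Rian and Mirg, while the paternally inherited chromosome expresses the protein genes Dlk1, Rtl1 and Dio3. The microRNAs are cut from the maternal transcripts. One group lies between Meg3 and Rian, partly antisense to Rtl1, and a larger group lies within Mirg downstream of Rian. Rian hosts many small nucleolar RNAs. In neurons the Mirg group is transcribed in response to activity through the transcription factor MEF2, and several of its products, miR-134 among them, act on translation in dendrites.

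The 40 members comprised 10 probe sets of the Meg3 side (Mir673 to Mir370), 27 of the Mirg side (Mir379 to Mir410), 2 carrying the symbol Rian and 1 for Meg3. The sides were assigned by probe set number, not by the transcript that hosts each microRNA. Of the 40 members, 37 carried a microRNA symbol. All 37 were found in the RefSeq microRNA table (mouse build GRCm38.p6), which gave 71 mature sequences with 69 distinct seeds. The seed, bases 2 to 8 counted from the 5′ end, is the stretch by which a microRNA pairs with its target messages. Mature sequences are shown for Mir381 and the microRNA members with the most positive or most negative differences from control. They serve to identify those genes and to compare their seeds. The arms of Mir376b and miR-410-3p are not shown. The source held only the 3p arm of Mir485, and not both arms of every member, so seeds are compared among the arms held. The values that follow belong to probe sets named for the genes, not to a mature arm. Seeds are in capitals and sequences run 5′ to 3′.
miR-381-5p: aGCGAGGUugcccuuuguauauu
miR-381-3p: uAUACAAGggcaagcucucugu
miR-665-5p: aGGGGCCUcugccucuauccaggauu
miR-665-3p: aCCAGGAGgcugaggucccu
miR-431-5p: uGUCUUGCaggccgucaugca
miR-431-3p: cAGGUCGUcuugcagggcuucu
miR-127-5p: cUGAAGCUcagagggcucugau
miR-127-3p: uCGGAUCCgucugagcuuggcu
miR-136-5p: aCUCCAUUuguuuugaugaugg
miR-136-3p: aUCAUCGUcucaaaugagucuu
miR-411-5p: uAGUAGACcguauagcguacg
miR-411-3p: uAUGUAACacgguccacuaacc
miR-494-5p: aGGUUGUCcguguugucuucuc
miR-494-3p: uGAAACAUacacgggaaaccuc
miR-134-5p: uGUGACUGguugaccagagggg
miR-134-3p: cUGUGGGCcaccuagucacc
miR-485-3p: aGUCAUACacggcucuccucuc
miR-377-5p: aGAGGUUGcccuuggugaauuc
miR-377-3p: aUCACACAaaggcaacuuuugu
miR-369-5p: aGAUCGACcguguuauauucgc
miR-369-3p: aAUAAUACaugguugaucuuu

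The members therefore differ in almost all of the seeds found, and 2 seeds were shared. The seed AUGUAAC was held by miR-411-3p and by miR-379-3p of the neighbouring gene Mir379. The seed GGUUGUC was held by miR-494-5p and by miR-410-5p, the last microRNA of the group. Over their length, miR-411-3p and miR-379-3p have 20 bases the same and 2 different (C10U and C22U, the base of miR-411-3p first, counted from its 5′ end).
miR-379-3p: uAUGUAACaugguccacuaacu
miR-410-5p: aGGUUGUCugugaugaguucg

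miR-381-3p is nearly the same as miR-300-3p, whose gene lies just upstream. The pair was added after the values were seen. They have 19 bases the same and 3 different, A4G, G21U and U22C, with the base of miR-381-3p first. The first of these lies in the seed. Whether their probe sets detect each other's RNA was not tested.
miR-300-3p: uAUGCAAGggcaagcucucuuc

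The Mir381 hairpin spans chr12:109726822-109726896 on the plus strand of GRCm38.p6, with both mature arms shown in capitals. No source used here says which bases of a hairpin the probe set covers, so mature microRNA, its hairpin and the unprocessed host transcript cannot be told apart in these values.
Mir381 hairpin: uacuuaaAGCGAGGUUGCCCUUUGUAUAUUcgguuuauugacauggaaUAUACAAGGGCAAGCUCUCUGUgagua

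Across the 20614 tested probe sets that the authors had not centred, the arrays correlated with the other 8 at a mean r of 0.977 to 0.981, except the third green soybean array at 0.958. Array medians were 0.145 to 0.176 with green soybean, 0.135 to 0.145 with yellow soybean and 0.102 to 0.119 with the control diet, so scores as deposited lie somewhat higher with green soybean over the whole array. Markers of the hippocampus were measured, with 8 of 9 listed pyramidal neuron genes tested and a mean score over the 7 of them that the authors had not centred of 0.730 to 0.976 with green soybean, 0.830 to 0.924 with yellow soybean and 0.872 to 0.892 with the control diet. Among tissues that adjoin the hippocampus, the mean over 7 choroid plexus genes was −0.111 to 0.372, −0.138 to 0.151 and −0.218 to 0.131 in those diets, and 6 of the 7 were higher with green soybean than with the control diet. Of 9 leptomeningeal genes 8 were higher, and the mean over the 4 not centred was 0.0446 to 0.294, 0.0202 to 0.226 and −0.0545 to 0.119. For thalamus and habenula (7 genes, 5 higher) it was 0.0522 to 0.159, 0.0955 to 0.156 and 0.0834 to 0.103, and for striatum (4 genes, 3 higher) 0.207 to 0.281, 0.227 to 0.283 and 0.199 to 0.236. The lowest pyramidal neuron mean, 0.730, was on the third green array. That array also had the lowest means for dentate granule (0.517), interneuron (0.557), astrocyte (1.24) and oligodendrocyte (1.05) genes, over those not centred. Its leptomeningeal mean, 0.294, was the highest, and the microglia and endothelium means were lowest on a control array. The part of these cells and tissues in the locus values was not tested. In a bulk sample, fewer cells of a type and less RNA per cell cannot be told apart. Of the members, 9 were centred by the authors so that the control mean is 0, as were 1345 of all tested probe sets. Mir381, Mir411, Mir377, Mir369, Mir134 and the Rian probe set with a small nucleolar RNA are among them.

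Mir381 was the member by which the locus was chosen. It scored −0.0741, −0.0956 and −0.355 on the green soybean arrays, 0.201, 0.118 and 0.111 on the yellow soybean arrays and −0.115, −0.0518 and 0.167 on the control arrays. All green arrays lay below all yellow arrays, while the control arrays spread over both. The mean was lowest with green soybean at −0.175 ± 0.156, highest with yellow soybean at 0.144 ± 0.0503 and between them with the control diet at 0 ± 0.148 (SD, n = 3 each), and both the yellow and the green arrays overlapped the control arrays. Green minus yellow was −0.318, and −0.228 without the third green array. Green minus control was −0.175, and −0.0849 without that array. Yellow minus control was 0.144, and 0.227 without the third control array. In the authors' deposited table Mir381 had a p-value of 4.76e-04, from a test and comparison that no source used here states. By the same unstated test the AF357355 probe set (2.65e-08), Mir377 (1.08e-07), Mir411 (3.45e-07) and Mir369 (3.38e-05) had smaller p-values. Centring followed that p-value. Its largest value among tested centred probe sets was 0.00497, and its smallest among those not centred was 0.00501.

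**Figure D1:**
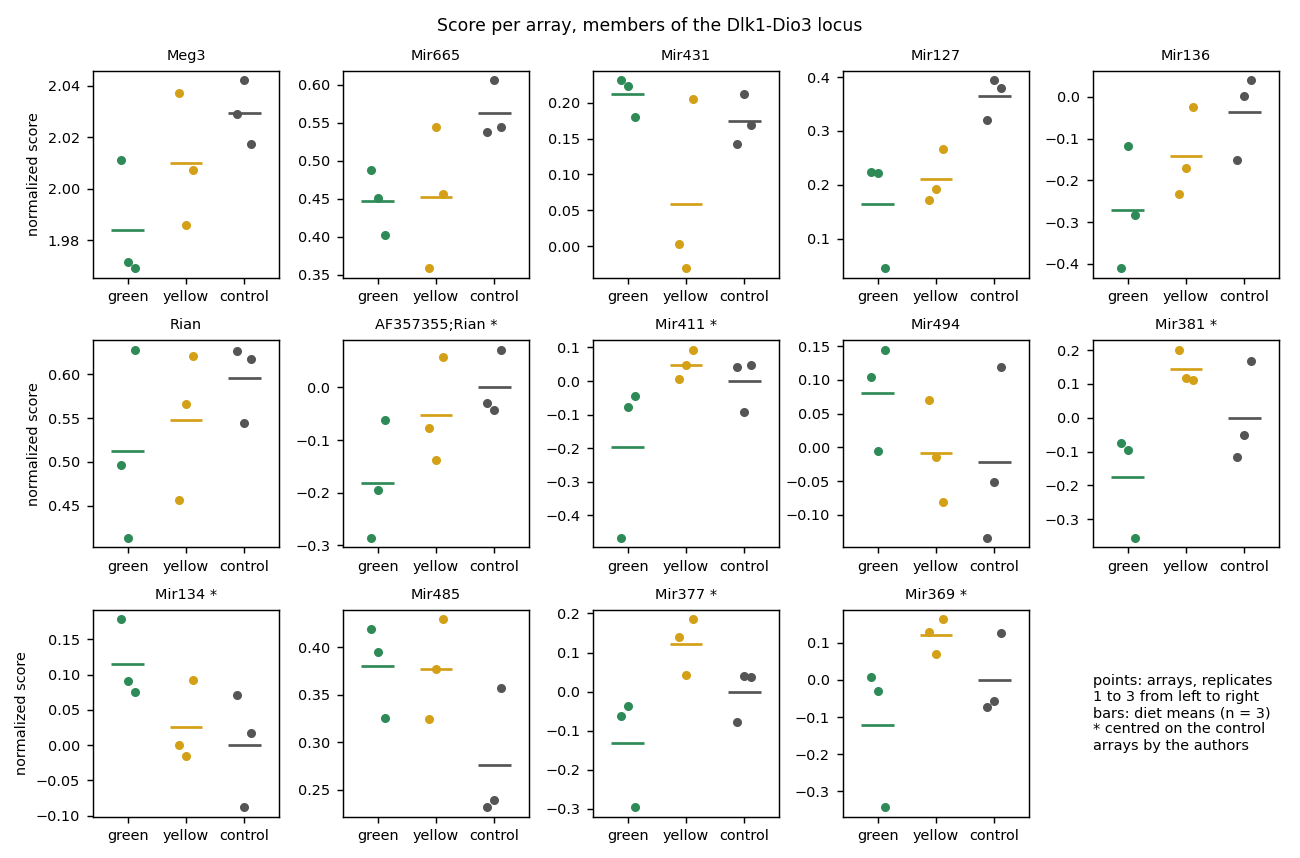
Scores (authors' normalized units, vertical axis) of the members described array by array, by diet from green soybean on the left through yellow soybean to control; each point is 1 array, each bar a mean of 3, vertical axes differ between panels and an asterisk marks a probe set centred on its control arrays. Mir381 is low on all green arrays relative to the yellow arrays, and its control arrays spread from −0.115 to 0.167.

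The non-coding host transcripts were measured by their own probe sets. Meg3, the long RNA that gives the Meg3 side its name, scored 2.01, 1.97 and 1.97 with green soybean, 2.04, 1.99 and 2.01 with yellow soybean and 2.03, 2.04 and 2.02 with the control diet. All green arrays lay below all control arrays, though by little. The difference from control was −0.0456 with an SE of 0.0461 for green (limma, adjusted p = 0.783) and −0.0194 for yellow (adjusted p = 1.00). Both tests therefore missed the threshold of an adjusted p of 0.05.

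The Rian probe set, for the long RNA that hosts small nucleolar RNAs, scored 0.496, 0.413 and 0.628 with green soybean, 0.457, 0.567 and 0.621 with yellow soybean and 0.626, 0.544 and 0.618 with the control diet. The groups overlapped, with green minus control at −0.0833 (SE 0.0656, limma adjusted p = 0.709) and −0.141 without the third green array. A second probe set pairs Rian with AF357355, a small nucleolar RNA, and scored −0.286, −0.196 and −0.0622 with green soybean, −0.0763, −0.138 and 0.0570 with yellow soybean and −0.0296, −0.0424 and 0.0720 with the control diet. Here all green arrays lay below all control arrays, while the yellow arrays overlapped both. Green minus control was −0.181 (SE 0.0704, unadjusted p = 0.0245, limma adjusted p = 0.471), and yellow minus control was −0.0526 (adjusted p = 1.00). The DQ267102 probe set, close by in number but not a member, differed from control by 0.0261 with green (SE 0.0957, limma adjusted p = 0.951). With yellow its difference was 0.0377. Mirg shares its probe set with Mir410. It scored 0.606, 0.492 and 0.188 with green soybean, 0.642, 0.536 and 0.560 with yellow soybean and 0.384, 0.578 and 0.601 with the control diet, and the third green array stood far below the rest. Its green minus control difference was −0.0923 (limma adjusted p = 0.789) and its yellow minus control difference 0.0582 (adjusted p = 1.00). Without the third green array green minus control turned to 0.0279.

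Among the Meg3-side microRNAs, Mir127 had the lowest adjusted p of any member. Mir127 and Mir136 are antisense to Rtl1 and are known to direct cleavage of its message. Mir127 scored 0.224, 0.223 and 0.0447 with green soybean, 0.172, 0.192 and 0.266 with yellow soybean and 0.321, 0.395 and 0.380 with the control diet. Every control array was above every array of either soybean diet. Green minus control was −0.201 (SE 0.0601, unadjusted p = 0.00590, limma adjusted p = 0.438) and −0.142 without the third green array, and yellow minus control was −0.155 (SE 0.0601, unadjusted p = 0.0244, adjusted p = 1.00). Both comparisons use the same 3 control arrays, so they are not independent.

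Mir136 scored −0.411, −0.117 and −0.283 with green soybean, −0.233, −0.170 and −0.0234 with yellow soybean and −0.151, 0.00276 and 0.0406 with the control diet. The second green array overlapped the control arrays, and the other green arrays lay below them. Green minus control was −0.234 (SE 0.0830, unadjusted p = 0.0155, limma adjusted p = 0.461), the most negative difference of any member, and yellow minus control was −0.106 (adjusted p = 1.00).

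Mir665 scored 0.487, 0.451 and 0.403 with green soybean, 0.358, 0.544 and 0.456 with yellow soybean and 0.537, 0.606 and 0.545 with the control diet. All green arrays were below all control arrays, and 1 yellow array overlapped the control range. The differences from control were −0.116 for green (SE 0.0575, limma adjusted p = 0.543) and −0.110 for yellow (adjusted p = 1.00). Mir431, also antisense to Rtl1, scored 0.232, 0.223 and 0.180 with green soybean, 0.00308, −0.0310 and 0.205 with yellow soybean and 0.143, 0.213 and 0.168 with the control diet. Here 2 yellow arrays were low and the green arrays overlapped the control arrays. Its yellow minus control difference was −0.115 (SE 0.0635, limma adjusted p = 1.00), and −0.189 without the third yellow array, and its green minus control difference was 0.0370 (adjusted p = 0.878), which turns to −0.0131 when array medians are aligned. Over the 10 Meg3-side probe sets, 5 were higher and 5 lower with green soybean than with the control diet, with a median difference of 0.00136. With yellow soybean 3 were higher and 7 lower, with a median of −0.0526. The 6 not described array by array (Mir673, Mir337, Mir540, Mir433, Mir341 and Mir370) had green differences from −0.0838 for Mir337 to 0.0965 for Mir370, and yellow differences from −0.0547 for Mir341 to 0.0346 for Mir433.

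On the Mirg side, Mir377, Mir369, Mir411, Mir329 and Mir376b shared with Mir381 that all their green arrays lay below all their yellow arrays. These were 5 of the 26 probe sets other than Mir381 (19.2%), beside 2.92% of all tested probe sets. The locus was chosen on that comparison, so this is a description. Mir377 scored −0.0614, −0.0378 and −0.296 with green soybean, 0.141, 0.0424 and 0.186 with yellow soybean and −0.0772, 0.0406 and 0.0366 with the control diet. All yellow arrays were above all control arrays, and the third green array was the lowest of the 9. Yellow minus control was 0.123 (SE 0.0733, limma adjusted p = 1.00) and green minus control −0.132 (adjusted p = 0.580). Without the third green array green minus control was −0.0496.

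Mir369 scored 0.00915, −0.0285 and −0.343 with green soybean, 0.130, 0.0708 and 0.164 with yellow soybean and −0.0718, −0.0556 and 0.127 with the control diet. The third green array again set its low mean, since green minus control was −0.121 (SE 0.0883, limma adjusted p = 0.684) with it and −0.00969 without it. Yellow minus control was 0.121 (adjusted p = 1.00).

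Mir411 scored −0.467, −0.0785 and −0.0454 with green soybean, 0.00656, 0.0474 and 0.0938 with yellow soybean and 0.0429, −0.0917 and 0.0489 with the control diet. In this case the first green array was the low one. Green minus control was −0.197 (SE 0.0953, limma adjusted p = 0.538) and −0.0620 without that array, and yellow minus control was 0.0493 (adjusted p = 1.00).

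Other Mirg-side microRNAs differed the other way. Mir134, which in neurons restrains translation of the kinase Limk1 in dendrites, scored 0.179, 0.0904 and 0.0747 with green soybean, 0.000413, −0.0149 and 0.0923 with yellow soybean and 0.0712, −0.0884 and 0.0172 with the control diet. All green arrays were above all control arrays, by a small margin. Green minus control was 0.115 (SE 0.0587, limma adjusted p = 0.554), the most positive of any member, with 0.0705 to 0.150 when 1 array was left out and 0.0646 with array medians aligned, and yellow minus control was 0.0259 (adjusted p = 1.00).

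Mir485, whose product acts on the synaptic vesicle protein Sv2a, scored 0.419, 0.395 and 0.326 with green soybean, 0.325, 0.377 and 0.430 with yellow soybean and 0.231, 0.239 and 0.357 with the control diet. The third control array overlapped both soybean diets, and the other control arrays lay below them. Its differences from control were 0.104 for green (SE 0.0557, limma adjusted p = 0.563) and 0.101 for yellow (adjusted p = 1.00). Mir494 scored 0.104, −0.00541 and 0.145 with green soybean, 0.0702, −0.0149 and −0.0814 with yellow soybean and −0.134, −0.0508 and 0.119 with the control diet. Its groups overlapped, with green minus control at 0.103 (SE 0.0719, limma adjusted p = 0.666), or 0.0471 to 0.174 when 1 array was left out, and yellow minus control at 0.0133 (adjusted p = 1.00). Over the 27 Mirg-side probe sets, 10 were higher and 17 lower with green soybean than with the control diet, with a median difference of −0.0729. With yellow soybean 21 were higher and 6 lower, with a median of 0.0409. The 20 not described by rule array by array had green differences from −0.142 for Mir412 to 0.103 for Mir679, and yellow differences from −0.0449 for Mir154 to 0.0956 for Mir376b.

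**Figure D2:**
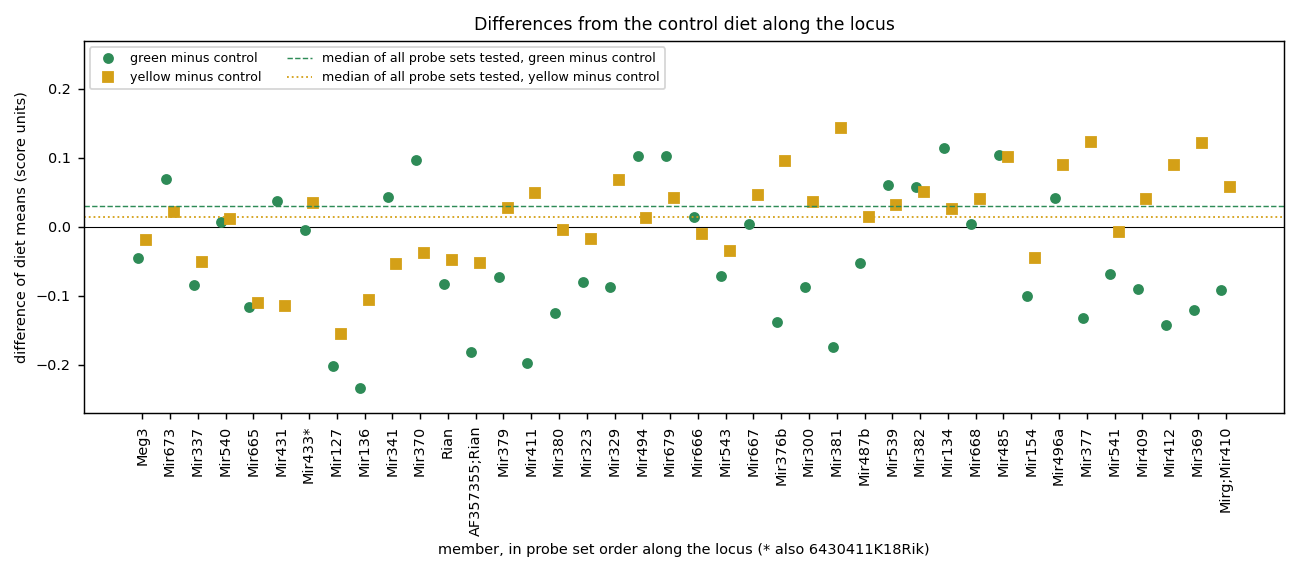
Difference in mean score for each of the 40 members, in the order of their probe set numbers along the locus (vertical axis, score units); circles are green minus control, squares yellow minus control, and dashed and dotted lines the medians of all tested probe sets, 0.0296 and 0.0140. On the Mirg side 17 of 27 green differences are below 0 and 21 of 27 yellow differences are above 0, and no tested member passed the adjusted threshold.

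Counted over all 40 members, 15 were higher and 25 lower with green soybean than with the control diet, with a median difference of −0.0721. Over all tested probe sets the median was 0.0296 and 65.0% were higher. With yellow soybean 24 members were higher and 16 lower, with a median of 0.0234, beside a median of 0.0140 and 60.4% higher over all tested probe sets. By limma's adjusted p under 0.05, no tested member was called in either comparison, and the background was 0% of 21959 probe sets in each. At an unadjusted p under 0.05 that background was 9.72% (2134 probe sets) for green and 3.04% (667) for yellow.

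Mir381 was given no test, which left 39 members. With green soybean 3 of 39 had an unadjusted p under 0.05 and were lower (Mir127, Mir136 and the AF357355 probe set), or 7.69%, where 1.4% of all tested probe sets did so, and none was higher, where 8.32% did. With yellow soybean 1 (Mir127) was lower and none higher, beside backgrounds of 0.929% lower and 2.11% higher. The green and the yellow arrays of these tests are those on which the locus was chosen. Members also share arrays and neighbouring transcripts, so the counts are not independent evidence.

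Among those 39 members, green and control arrays did not overlap for 4 that were lower (Meg3, Mir665, Mir127 and the AF357355 probe set), or 10.3%, beside a background of 2.67%. They did not overlap for 2 that were higher (Mir679 and Mir134), or 5.13%, beside 13.2%. Yellow and control arrays did not overlap for 2 that were lower (Mir127 and Mir341), beside 2.65%, and 1 that was higher (Mir377), beside 6.65%. Between green and yellow soybean, 5 of the 39 did not overlap and were lower with green (Mir411, Mir329, Mir376b, Mir377 and Mir369). That is 12.8%, beside 2.92%, and 1 was higher (Mir341), or 2.56%, beside 7.63%. Mir381 also lay lower without overlap, but it was picked for this. In that comparison 11 of the 39 were higher and 28 lower, with a median of −0.0423. The locus was chosen on that comparison, so these counts describe it and are not evidence of a difference.

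Aligning the array medians lowered the green differences, and the count of members lower at an unadjusted p under 0.05 became 10 of 39, where the background became 5.43%. None was then higher, beside 2.47%. Without the third green array, the sign of green minus control turned for 4 of 40 members (Mir540, Mir433, Mir668 and the Mirg and Mir410 probe set). The fit without that array gave 5 lower at an unadjusted p under 0.05 (Mir127, Mir136, Mir411 and both Rian probe sets) and 1 higher (Mir485), beside 1.32% and 6.78%. By comparison, the 176 microRNA probe sets elsewhere in the genome without an exact 0 had a median green minus control difference of 0.0542, with 123 higher and 53 lower, and a median yellow minus control difference of 0.0262, with 116 higher and 60 lower. No test was made of locus against other microRNAs.

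The mean pairwise correlation of the Mirg-side probe sets over 9 arrays was 0.266, or 0.253 without Mir381, given as a description without a test. It was 0.0752 among Meg3-side microRNAs, −0.0364 between the sides, 0.0590 among the other microRNA probe sets and 0.0384 over all tested probe sets. The same 9 arrays and the same normalization enter every pair. Without the third green array the Meg3-side value was 0.167 and the value between the sides −0.0805. Without the third control array as well they were 0.201 and −0.144, and for deviations from diet means 0.0874 and 0.0271. The Mirg-side value was 0.284 for deviations from diet means, 0.348 without the third green array, 0.211 without the third control array and 0.294 without both. The value was thus no smaller once diet means were removed.

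The array profile of the Mirg side ran low on the third green and first control arrays and high on the third control array. Mean deviations from each probe set's own mean were −0.0435, −0.00354 and −0.0877 with green soybean, 0.0505, 0.0204 and 0.0624 with yellow soybean and −0.0823, −0.0185 and 0.102 with the control diet. The median deviation was lowest on the first control array, at −0.0975, and was −0.0345 on the third green array. The third green array was the lowest of the 9 for 11 of 27 probe sets (40.7%), where it was the lowest for 23.4% of all tested probe sets. The first green array was the lowest for 8 (29.6%), beside 5.26% of all. For 6 (22.2%) the lowest was the first control array, beside 10.5% of all. The third yellow array was the highest for 9 of 27 and the third control array for 8, where they were the highest for 12.1% and 8.62% of all. The control arrays thus spanned a wider range than the 3 yellow arrays. On the third green array the 176 other microRNA probe sets deviated by 0.0560 on average, upward, and 69 of them (39.2%) had their highest value there, as did 24.7% of all tested probe sets.

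**Figure D3:**
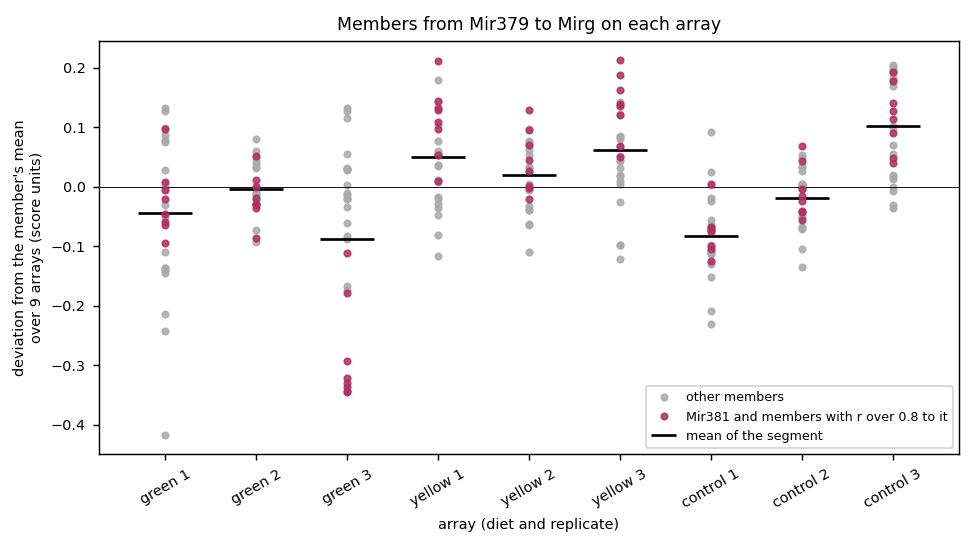
Deviation of each probe set from its own mean over 9 arrays (vertical axis, score units) for the 27 Mirg-side members, by array (horizontal axis); coloured points are Mir381 and the 7 members that correlate with it above 0.8, grey points the others and bars the mean of all 27. The mean is lowest on the third green array, at −0.0877 on average, and highest on the third control array, at 0.102. The median of the 27 is lowest on the first control array, at −0.0975, and is −0.0345 on the third green array.

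By correlation with Mir381 over the 9 arrays, 7 of 39 members exceeded 0.8 and all 7 were on the Mirg side. Mir381 was picked for its values, and no share over all tested probe sets is given. This count, and those of members above 0 and below −0.5, therefore have no background to be read against. Mir369 was the closest at r = 0.954 (Spearman's rho 0.850), followed by Mir376b at 0.952 (0.883) and Mir377 at 0.905 (0.817). Mir412 followed at 0.883 (0.767), Mir409 at 0.860 (0.80), the Mirg and Mir410 probe set at 0.844 (0.767) and Mir487b at 0.809 (0.50). Without the third green array these values were 0.913 for Mir369, 0.937 for Mir376b, 0.784 for Mir377, 0.748 for Mir412, 0.737 for Mir409, 0.620 for the Mirg and Mir410 probe set and 0.537 for Mir487b. Thus 2 of the 7 stayed over 0.8 without that array, and Mir329 came in at 0.866 beside 0.663 with all arrays. Mir376b, given array by array here for its likeness to Mir381, scored 0.0832, 0.0585 and −0.248 with green soybean, 0.186, 0.183 and 0.225 with yellow soybean and 0.0197, 0.0858 and 0.203 with the control diet. As with Mir381, the third green array was the lowest of the 9 and the third control array lay among the yellow arrays. The microRNA with the near-identical sequence, Mir300, correlated at 0.538, at 0.738 without the third green array and at −0.0136 for deviations from diet means. In all, 28 of 39 members correlated above 0, and 3 were below −0.5, all on the Meg3 side. These were Mir341 at −0.817, Mir673 at −0.799 and Mir370 at −0.721. Without the third green array they were at −0.611, −0.587 and −0.483 in that order, and Mir431 was at −0.602 beside −0.499 with all arrays.

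**Figure D4:**
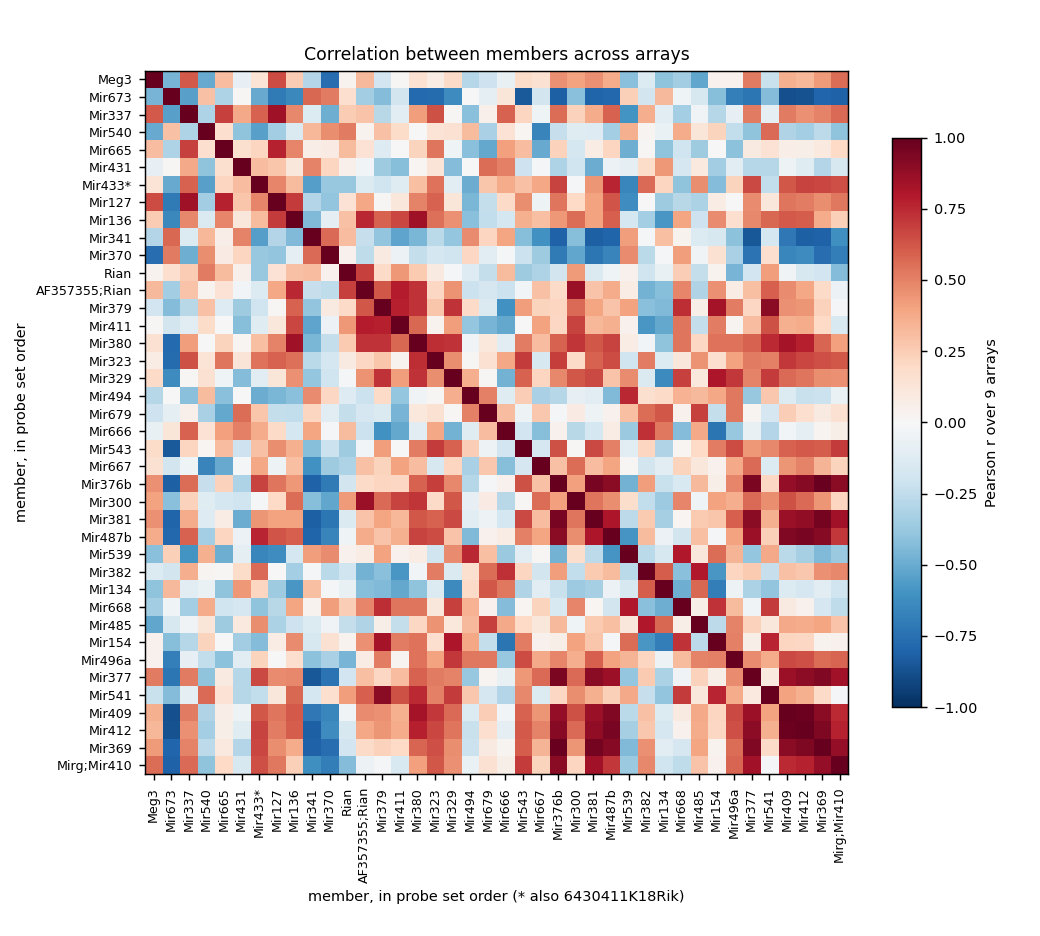
Pearson correlation over 9 arrays between members, in locus order, colour from −1 to 1. The block of Mirg-side probe sets has a mean of 0.266 (0.253 without Mir381) and the block of Meg3-side probe sets a mean of 0.0752.

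The 5 probe sets left out scored an exact 0 on at least 1 array. Where scored, they ranged from −0.693 to −0.112, and the members just inside the rule went down to −0.528, for Mir379, which describes the edge of the rule and not a level of RNA. Mir434 was listed at 0 on all 3 green arrays, while it scored −0.669, −0.481 and −0.608 with yellow soybean and −0.557, −0.677 and −0.408 with the control diet. Of 28187 probe sets in the annotated number range, 2 had an exact 0 on all green arrays and on no others, Mir434 among them. The same pattern was found in 17 for yellow and 3 for control. Because an exact 0 may be a missing value, no fold and no test follow. Mir299a was at 0 on 4 arrays, Mir376c on 8, and Mir495 and Mir376a on 1 each.

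Just outside the locus window by probe set number, Mir345 scored 0.267, 0.0264 and 0.276 with green soybean, 0.111, 0.0850 and 0.129 with yellow soybean and 0.0547, 0.123 and 0.0413 with the control diet, with overlap between all groups. Of the domain's protein genes, Dlk1, a transmembrane ligand related to Notch ligands, scored 0.173, −0.0169 and 0.245 with green soybean, −0.115, −0.0382 and 0.109 with yellow soybean and 0.0245, −0.0685 and 0.0440 with the control diet. The second green array fell within the control range, and green minus control was 0.134 (SE 0.0768, limma adjusted p = 0.598). Rtl1, a retrotransposon-derived gene, differed from control by −0.0551 with green (limma adjusted p = 0.877) and −0.0245 with yellow (adjusted p = 1.00). Dio3, which inactivates thyroid hormone, was at 0 on 1 green array and between −0.657 and −0.449 otherwise, and was not tested.

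Other gene lists relevant to the locus were counted the same way, and no gene on them was called. Of 12 flanking genes 11 were higher and 1 lower with green soybean, and 7 higher and 5 lower with yellow soybean. Each gene counts here by its probe set with the highest mean score, and genes with several probe sets did not always agree. By that choice Degs2, a sphingolipid desaturase, had the most positive green difference at 0.114 and Dync1h1, the dynein heavy chain, the most negative at −0.0699, while with yellow soybean Slc25a29 was at 0.128 and Wdr20 at −0.0859. Over all 18 tested probe sets of these genes, 12 were higher and 6 lower with green soybean, and 8 higher and 10 lower with yellow soybean. Ppp2r5c, a regulatory subunit of protein phosphatase 2A just downstream of the locus, counts as higher with green soybean from 1 probe set, at 0.0400, but its other 3 were lower. They were picked out after their values were seen. The lowest were at −0.219 (SE 0.0782, unadjusted p = 0.0162, limma adjusted p = 0.461) and −0.215 (SE 0.0608, unadjusted p = 0.00413, adjusted p = 0.438), and the third was at −0.0110. For the probe set at −0.215, green scores were −0.215, −0.143 and −0.288 and control scores 0.0410, 0.0324 and −0.0733, without overlap, and its unadjusted p was smaller than that of any tested member. Of 21 genes for making and using microRNAs, counted in the same way, 7 were higher and 14 lower with green soybean and 8 higher and 13 lower with yellow soybean. Lin28a, an inhibitor of let-7 maturation, was at 0.112 and Dhx36, a helicase for G-quadruplexes, at −0.134 (limma adjusted p = 0.497) with green soybean, and in the yellow comparison Lin28a was at 0.0780 and Dgcr8, the partner of Drosha, at −0.0406. The mean score over the 19 genes of the list that were not centred was lowest on the third green array, and its part in these counts was not tested. The range of that mean was 0.544 to 0.676 with green soybean, 0.625 to 0.653 with yellow soybean and 0.619 to 0.659 with the control diet.

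Of 11 genes for keeping imprints, 7 were higher and 4 lower with green soybean and 8 higher and 3 lower with yellow soybean. Uhrf1, which recruits the maintenance DNA methyltransferase, was at 0.195 (limma adjusted p = 0.467) and Ctcf at −0.0377 with green soybean, and Jarid2 at 0.0874 and Dnmt3b at −0.0798 with yellow soybean. Of the MEF2 factors 3 of 4 were tested. Mef2a differed from control by −0.0450, Mef2c by 0.111 and Mef2d by 0.0186 with green soybean (−0.0349 for its other probe set), and by −0.0493, 0.0700 and 0.0604 in that order with yellow soybean, all with adjusted p over the threshold. Of 9 reported targets of cluster microRNAs, 7 were higher and 2 lower with green soybean and 9 higher with yellow soybean. The extremes were Cnih2, a partner of glutamate receptors, at 0.0649 and Src at −0.0254 with green soybean, and Bdnf, a neurotrophin, at 0.0946 and Cnih2 at 0.0105 with yellow soybean. Of 33 tested imprinted genes elsewhere, 24 were higher and 9 lower with green soybean and 23 higher and 10 lower with yellow soybean. Dcn, also a leptomeningeal marker, was at 0.298 and Ddc at −0.0805 with green soybean, and Slc22a2 at 0.143 and Ascl2 at −0.0841 with yellow soybean. Over all tested probe sets the share higher was 65.0% for green and 60.4% for yellow, against which these counts are to be read.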

How the data were processed

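The authors extracted total RNA with spin columns, labelled it as biotinylated cRNA and hybridised it to a 1-colour Affymetrix array, per the labels. The deposited values are scores normalized by the authors, 1 for each probe set on each array, for which the labels credit the SuperNORM service. The authors also deposited p-values from an unstated test. A further 9 value columns match no label and were not used. An exact 0 was read as no value, which left 21959 probe sets. Scores were fitted with limma 3.58.1 in R 4.3.3 over all 9 arrays at once, with Benjamini-Hochberg adjustment over all tested probe sets and calls at an adjusted p under 0.05. The number of arrays, 3 per diet, limits the precision, and an exact permutation test of 3 against 3 could not go below 0.1. The fit was tested on simulated data.

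Array-by-array values are given for Mir381, Meg3, the Rian probe sets and the members with the 3 most positive and the 3 most negative differences from control in each comparison. Gene lists name their extremes. Members and lists were chosen with earlier results of these data known. Alternatives covered array scaling, a filter on low scores, the variance model, array weights, the arrays in the fit, a replicate block, each array left out, exact 0 as a value and, added after seeing the data, leaving out the probe sets centred by the authors.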

Additional observations from a re-analysis of the deposited data

How the results depend on the processing

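Against the control diet, no probe set of the locus was called under any alternative, leaving aside Mir381, which was given no test. Over all tested probe sets, green against control had 0 called as fitted, 1 with array weights, 0 to 1 with an array left out and 3 with exact 0 as a value; yellow against control had 0, 0 to 0 and 11 with exact 0 as a value; green against yellow had 0, 0 to 1 and 8 with exact 0 as a value. The single calls with an array left out came without the third green array. The median green minus control difference of the members, −0.0721, was −0.122 with array medians aligned and −0.103 to −0.00734 with an array left out (−0.0258 without the third green array, −0.00734 without the third control array). Members higher in that comparison numbered 8 with medians aligned and 13 to 18 with an array left out. The filter on low scores left 21 members, of which 9 were higher for green against control, 12 for yellow against control and 6 for green against yellow. Yellow against control had 16 to 28 members higher with an array left out, and a median of −0.00891 to 0.0596. For green against control Mir431 turned to −0.0131 (medians aligned) and −0.00651 (quantile normalization). For yellow against control Mir494 turned to −0.0156 and −0.00190 under the same settings and ranged from −0.0428 to 0.0838 with an array left out, and Mir134 turned to −0.00298 (medians aligned) and ranged from −0.0183 to 0.0616. The cause was not tested. With replicate number as a block, 0 probe sets were called in each comparison and no call changed. Same-numbered arrays deviated together with r from −0.0817 to 0.165, so the numbers were not taken as pairs. Signal over background is not given in the sources used here.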
